A study of Mus musculus with 4 samples.

Results

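The genes described here are a set of 40 hypoxia and glycolysis genes, listed by function: the subunits of the hypoxia-inducible factors (HIF), glucose transporters, glycolytic enzymes, enzymes that handle pyruvate and lactate, the oxygen sensors, and genes known elsewhere as HIF targets. All probe sets whose only gene symbol is a listed name were taken. This gave 81 probe sets for 37 of the 40 genes, out of 18194 genes on the array. Gpi1, Eno1 and Bnip3l had no probe set with a symbol of their own and were not analysed here. Where a gene had several probe sets, the one with the highest 4-array mean stood for it. The comparison took in every gene with at least 1 array at or above 6.05, the median of all log2 values. With this level filter 35 of the 40 genes were compared, among 12098 genes, while Pfkfb3 and Car9 stayed below it on all 4 arrays. For 3 of the 35 the filter itself depended on a difference: Eno2 passed only through the array labelled induced of the Hey2 line, Adm only through both arrays labelled induced, and Slc16a3 only through the arrays of the Hey1 line. Their places in the counts below were therefore set in part by the filter and support nothing.

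Total RNA came from murine embryonic stem cells (CM7/1) in 2 lines, made to overexpress Hey2 or Hey1, which are transcriptional repressors downstream of Notch receptors. Each line had 1 array labelled induced, with doxycycline at 1000 ng/ml for 48 h, and 1 uninduced array labelled control, so each of the 4 groups is 1 array and has no replicate. The sources used here do not say how many clones a line holds, what drives the factor in it, or whether the arrays came from separate cultures. P-values below therefore measure only the spread between these samples, which may be technical. In the main fit that spread is the disagreement between the differences of the 2 lines, moderated by the variance of all genes. No array of cells with doxycycline and no Hey factor was analysed here, so the drug and the factor cannot be told apart.

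HIF pairs an oxygen-labile alpha subunit with the stable partner Arnt. In well-oxygenated cells, prolyl hydroxylases of the Egln family mark the alpha subunit for destruction through Vhl. When oxygen is low the alpha subunit persists, and HIF raises transcription of glucose transporters, glycolytic enzymes, lactate handling and survival genes from sites with the core sequence RCGTG. Embryonic stem cells are known for a high rate of glycolysis even in ample oxygen.

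The labels were not borne out by the targeted genes. In the Hey1 line the Hey1 probe set read 6.51 on the array labelled induced and 6.73 on the uninduced array of that line. The Hey2 probe set stayed below the filter, at 4.34 on the array labelled induced and 4.25 on the uninduced array of the Hey2 line. Whether these probes lie outside the introduced sequence was not tested, so the arrays are called "labelled induced" throughout. All 8 markers of pluripotent stem cells passed the filter, with means of 11.1 to 14.9. Of the markers of other cell types, 2 of 8 measured for fibroblasts passed, 1 of 6 for endoderm, 4 of 5 for mesoderm and heart, 4 of 4 for neuroectoderm and 2 of 4 for trophoblast. The 3′ minus 5′ difference of control probe sets, read for RNA quality, was for Gapdh 0.0324 labelled induced and 0.0119 uninduced in the Hey2 line, and 0.0423 labelled induced and 0.0398 uninduced in the Hey1 line. For Actb it was 0.424 labelled induced and 0.393 uninduced in the Hey2 line, against 0.513 and 0.480 in the Hey1 line. Pcx had 1.56 labelled induced and 1.33 uninduced in the Hey2 line, against 1.43 and 1.38 in the Hey1 line. Tfrc had 0.957 labelled induced and 0.669 uninduced in the Hey2 line, against 0.836 and 0.955 in the Hey1 line, so the 4 controls did not order the arrays alike, and their part in the results was not tested. In RNA from whole cultures, fewer cells of a type and less RNA per cell cannot be told apart.

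Within each line the hypoxia and glycolysis genes were spread about evenly around 0 on the array labelled induced, whereas between the lines most read lower in the Hey2 line, in both states. In the Hey1 line 17 of the 35 genes were above and 18 below the uninduced array, with a median difference of -0.0024, against -0.0117 for all genes. In the Hey2 line 19 were above and 16 below, with a median of 0.0273, against -0.0224 for all genes. Between the uninduced arrays, Hey2 line minus Hey1 line, 28 of 35 were below 0, or 80.0%, against 46.2% of all genes. Between the arrays labelled induced 25 of 35 were below 0, or 71.4%, against 52.7% of all genes. These comparisons share no array, and 23 of the 35 genes, 65.7%, were below 0 in both, against 35.2% of all genes. Above 0 in both comparisons were 5, namely Hk1, Hk2, Gapdh, Pgam1 and Pdk3. The share of all genes above 0 in both was not counted.

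**Figure D1:**
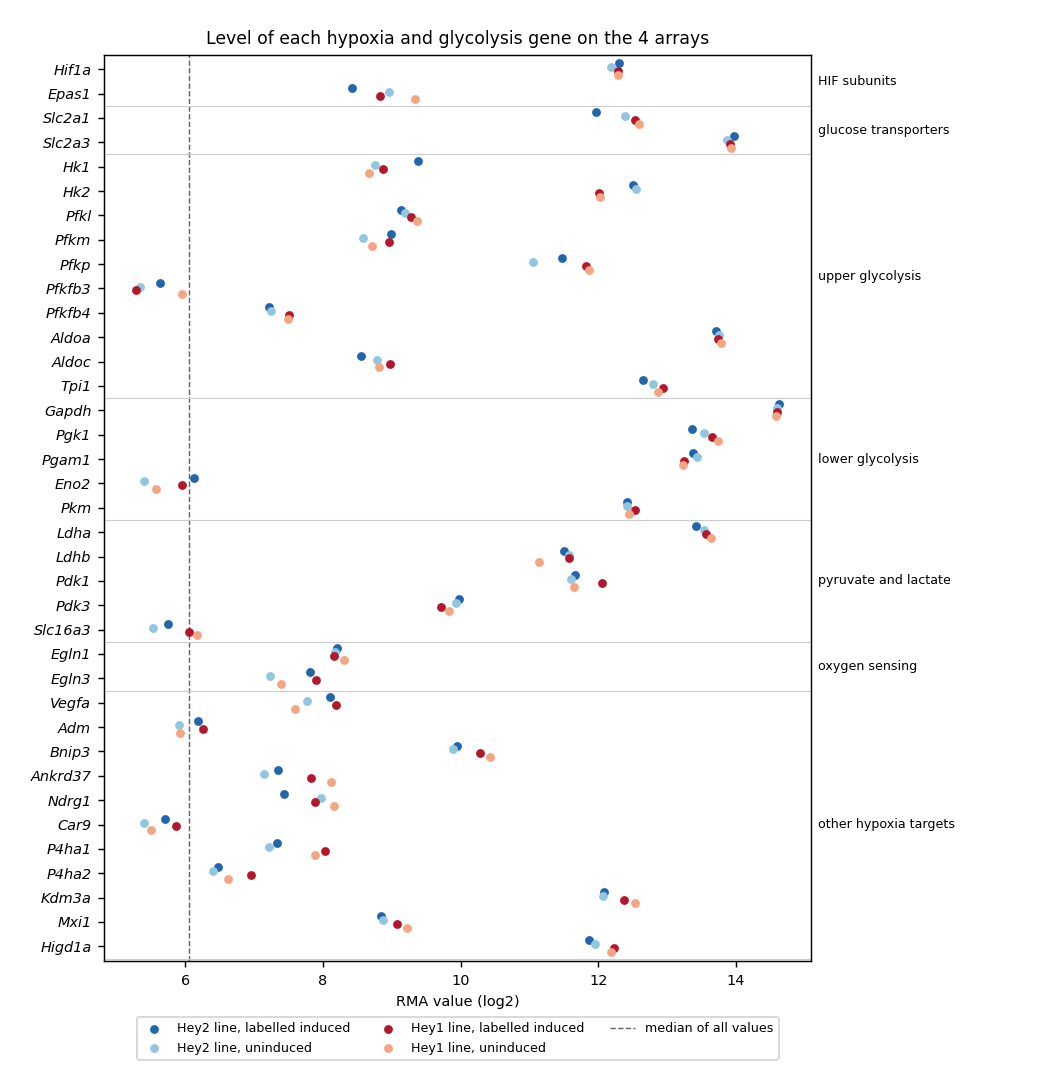
RMA values (log2, horizontal axis) of the 37 measured genes on each of the 4 arrays, grouped by role, with 1 point per array and no replicates. The dashed line is the level filter at 6.05. Gapdh, Slc2a3 and Aldoa stand near 14 with points almost on top of each other, whereas Ankrd37, Pfkp and P4ha1 show the arrays of the Hey2 line to the left of those of the Hey1 line.

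A difference of 1.5-fold (0.58 on the log2 scale) was reached by few genes. In the Hey1 line only Vegfa was 1.5-fold higher on the array labelled induced, 1 of 35 genes, where 1.84% of all genes were. None of the 35 was 1.5-fold lower, where 0.587% of all genes were. In the Hey2 line Hk1 and Eno2 were 1.5-fold higher, 2 of 35, against 3.02% of all genes, with Eno2 let in by the array where it was high, and none was lower, against 2.46%. Between the uninduced arrays none was 1.5-fold higher in the Hey2 line, against 4.5% of all genes. Ankrd37, Pfkp, P4ha1 and Slc16a3 were 1.5-fold lower there, 4 of 35 or 11.4%, against 4.42% of all genes; Slc16a3 was let in by the line where it was high. Between the arrays labelled induced P4ha1 alone was 1.5-fold lower, against 2.76% of all genes, and none was higher, against 3.95%. None of the 35 genes reached 2-fold in either direction in any comparison. Of all genes, 0.471% did so in the Hey1 line, 0.926% in the Hey2 line, 1.96% between the uninduced arrays and 1.61% between the arrays labelled induced.

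A limma model across all 12098 genes, with 1 residual degree of freedom per gene, gave the difference shared by both lines (the common response) and the difference between the lines over both states (the line effect). The common response treats induction of Hey1 and of Hey2 as repeats of a single treatment. For the common response limma called 0 genes after Benjamini-Hochberg adjustment at 0.05, and 835 genes were higher and 763 lower at an unadjusted p under 0.05, which is 6.9% and 6.31% of all genes. Among the 35 genes 6 were higher at that unadjusted level, namely Egln3, Vegfa, Hk1, Pfkm and, let in by arrays where they were high, Eno2 and Adm, and 2 were lower, Epas1 and Ndrg1. For the line effect limma called 65 genes higher and 46 lower in the Hey2 line, 0.537% and 0.38% of all genes, and 0 of the 35. At an unadjusted p under 0.05 1 of the 35 was higher in the Hey2 line, against 15.2% of all genes. In the other direction 14 of 35 were lower, or 40.0%, with Slc16a3 among them, against 13.1% of all genes. The calls for the line effect hang on the variance prior: with a prior that follows the mean level and is fitted robustly, limma called 2 of the 35 higher and 11 lower, among 1543 genes higher and 1390 lower.

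**Figure D2:**
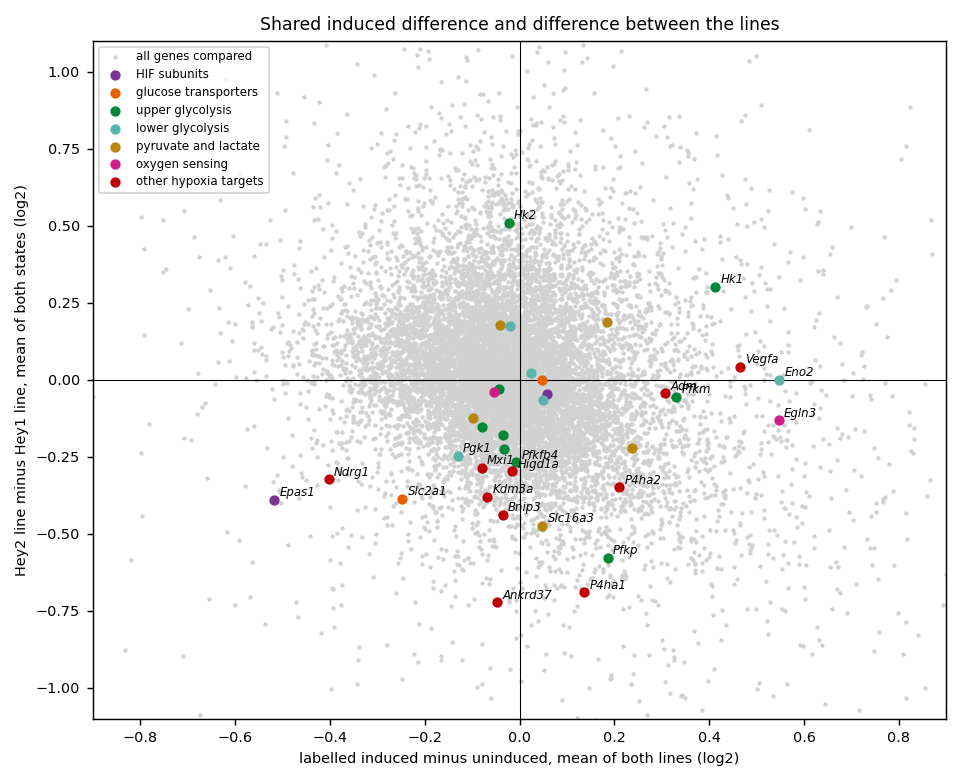
Each point is a gene, with the difference between arrays labelled induced and uninduced averaged over both lines on the horizontal axis and the Hey2 line minus the Hey1 line averaged over both states on the vertical axis, both in log2. Coloured points are the 35 genes that passed the level filter and grey points all genes compared that lie within the axes; names mark the genes with an unadjusted limma p under 0.05 in either direction. Most coloured points lie under the horizontal zero line, and Epas1 and Ndrg1 stand apart at the left from Vegfa, Eno2 and Egln3 at the right.

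The promoters of 4 genes are shown because their genes hold the largest values on these 2 axes. Egln3 and Eno2 had the largest mean difference between arrays labelled induced and uninduced; Ankrd37 and P4ha1, added after their values were seen, had the largest between the lines. Each sequence is the RefSeq window of assembly GRCm38.p6, from 250 bases before to 50 bases after the annotated start, written 5′ to 3′ on the gene's strand. Capitals mark the HIF core, ACGTG or GCGTG on either strand, and the Hey boxes CACGTG and CACGCG, which bind Hey factors. Each Hey box contains a core by its letters, so a box always overlaps a core. The windows are chr12:54203825-54204124 on the minus strand for Egln3, chr6:124769624-124769923 on the minus strand for Eno2, chr8:45999801-46000100 on the minus strand for Ankrd37 and chr10:59323046-59323345 on the plus strand for P4ha1.
Egln3: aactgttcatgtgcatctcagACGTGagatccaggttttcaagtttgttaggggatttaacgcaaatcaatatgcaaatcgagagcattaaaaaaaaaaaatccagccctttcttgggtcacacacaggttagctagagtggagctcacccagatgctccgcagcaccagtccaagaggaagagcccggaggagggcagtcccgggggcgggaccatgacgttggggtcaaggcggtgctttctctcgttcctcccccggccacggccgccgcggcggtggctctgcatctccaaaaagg
Eno2: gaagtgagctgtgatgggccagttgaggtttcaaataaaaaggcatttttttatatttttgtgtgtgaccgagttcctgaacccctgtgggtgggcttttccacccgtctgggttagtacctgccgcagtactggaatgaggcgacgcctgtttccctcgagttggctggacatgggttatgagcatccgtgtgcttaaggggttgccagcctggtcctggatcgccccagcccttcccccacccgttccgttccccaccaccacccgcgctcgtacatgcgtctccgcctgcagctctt
Ankrd37: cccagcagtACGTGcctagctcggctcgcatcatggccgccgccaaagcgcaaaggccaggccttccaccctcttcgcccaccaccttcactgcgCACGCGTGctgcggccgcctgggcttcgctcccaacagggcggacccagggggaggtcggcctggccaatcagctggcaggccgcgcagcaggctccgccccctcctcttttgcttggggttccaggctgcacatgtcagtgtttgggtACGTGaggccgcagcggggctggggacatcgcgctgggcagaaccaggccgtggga
P4ha1: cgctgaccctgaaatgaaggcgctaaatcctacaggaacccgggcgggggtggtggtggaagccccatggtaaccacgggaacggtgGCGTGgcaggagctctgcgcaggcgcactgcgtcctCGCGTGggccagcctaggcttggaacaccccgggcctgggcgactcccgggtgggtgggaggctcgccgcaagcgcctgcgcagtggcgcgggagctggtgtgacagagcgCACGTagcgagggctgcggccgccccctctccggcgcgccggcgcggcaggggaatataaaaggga
The Egln3 window held 1 core and no Hey box, and the Eno2 window held 0 of either. The Ankrd37 window held 4 cores, and 2 matches of a Hey box overlap the pair of cores that lie together. In the P4ha1 window there were 3 cores, 1 of which overlaps a Hey box. RefSeq windows were found for 36 of the 40 genes, not for Epas1, Slc2a3, Ndrg1 or Bnip3l. The 36 include Gpi1 and Eno1, whose levels were not analysed here, and Pfkfb3 and Car9, which were below the level filter. The list holds genes known elsewhere as HIF targets, so the shares of cores are not independent of how it was chosen. In the first window of each gene, 28 of 36 held a core, 77.8%, against 63.2% of the genes that passed the level filter and 43.8% of all genes. For ACGTG alone the shares were 55.6%, against 25.9% and 19.7%, and for GCGTG alone 55.6%, against 51.7% and 32.5%. A Hey box was in 13 of 36 windows, 36.1%, against 25.9% of genes that passed the filter and 15.5% of all genes. These 13 windows are among the 28 with a core, since each box contains one. Of the 14 genes lower in the Hey2 line at the unadjusted level 12 had a window, of which 11 held a core and 5 a Hey box. A match of letters is a description and not a site.

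Among the HIF subunits, Hif1a, the broadly expressed alpha subunit, was abundant and, on its brightest probe set, even across the arrays. It read 12.30 on the array labelled induced and 12.18 on the uninduced array of the Hey2 line, and 12.28 and 12.29 on those of the Hey1 line. Its 4 arrays lay within 0.116 on that probe set. The next brightest, with a mean of 8.86, differed by -0.20 for the Hey2 line and 0.21 for the Hey1 line. Epas1 encodes HIF-2 alpha, the other main alpha subunit. Epas1 read 8.43 labelled induced and 8.96 uninduced in the Hey2 line, and 8.83 labelled induced and 9.34 uninduced in the Hey1 line. Each array labelled induced was thus below its own uninduced array, by 0.53 for the Hey2 line and 0.51 for the Hey1 line, and the Hey2 line was below the Hey1 line in both states. The common response of Epas1 was -0.52 ± 0.08 (SE; limma, adjusted p = 0.265) and its line effect -0.39 ± 0.08 (SE; limma, adjusted p = 0.0851), so neither passed. The second Epas1 probe set, between 6.48 and 6.89, differed by -0.12 for the Hey2 line and -0.40 for the Hey1 line, and was 0.17 higher in the Hey2 line between the arrays labelled induced.

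Of the glucose transporters, Slc2a3 (GLUT3) read between 13.86 and 13.97 on all 4 arrays. Its next probe set was about as even, with 0.04 for the Hey2 line and -0.05 for the Hey1 line. Its dimmest probe sets were lower on the arrays labelled induced, with -0.19 and -0.45 in the Hey2 line and -0.37 and -0.27 in the Hey1 line. Slc2a1 (GLUT1), a classical HIF target that carries basal glucose uptake, read 11.96 labelled induced and 12.39 uninduced in the Hey2 line, and 12.53 labelled induced and 12.60 uninduced in the Hey1 line. The array labelled induced of the Hey2 line was the lowest, by a gap wider than the spread of the other 3. All 3 probe sets of Slc2a1 showed this, with differences of -0.43, -0.45 and -0.44 in the Hey2 line and of -0.07, 0.05 and -0.08 in the Hey1 line. Its line effect was -0.39 ± 0.12 (SE; limma, adjusted p = 0.146).

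The hexokinases, which trap glucose in the cell by phosphorylation, both read higher in the Hey2 line in both states, but only Hk1 differed clearly within a line. Hk1, the widely expressed form, read 9.38 labelled induced and 8.76 uninduced in the Hey2 line, and 8.87 labelled induced and 8.67 uninduced in the Hey1 line. Its array labelled induced in the Hey2 line was the highest, 1.54-fold over the uninduced array, and both probe sets gave the same picture (0.62 and 0.60 for the Hey2 line, 0.20 and 0.21 for the Hey1 line). Hk2, the hypoxia-regulated form, read 12.51 labelled induced and 12.55 uninduced in the Hey2 line, against 12.01 and 12.02 in the Hey1 line. The lines did not overlap and the state made almost no difference. Hk2 had a line effect of 0.51 ± 0.08 (SE; limma, adjusted p = 0.0623), the only one of the 35 genes higher in the Hey2 line at an unadjusted p under 0.05. Hk2 thus lay opposite to most of the other HIF targets, although neither direction passed the adjusted threshold.

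Phosphofructokinase commits sugar to glycolysis, and its 3 subunit genes also differed among themselves. The muscle form Pfkm read 8.99 labelled induced and 8.58 uninduced in the Hey2 line, and 8.97 and 8.71 in the Hey1 line, so both arrays labelled induced were above both uninduced arrays. The platelet form Pfkp read 11.48 labelled induced and 11.06 uninduced in the Hey2 line, and 11.82 and 11.87 in the Hey1 line. The uninduced array of the Hey2 line was 1.75-fold below that of the Hey1 line, and the line effect of Pfkp was -0.58 ± 0.14 (SE; limma, adjusted p = 0.104). All 3 Pfkp probe sets were lower in the Hey2 line in both states, by 0.81, 0.43 and 0.38 uninduced. The liver form Pfkl stayed between 9.13 and 9.36.

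The bifunctional enzymes Pfkfb3 and Pfkfb4 set the level of fructose 2,6-bisphosphate, an activator of phosphofructokinase. Pfkfb3 was below the level filter throughout, at 5.63 labelled induced and 5.35 uninduced in the Hey2 line, and 5.29 and 5.95 in the Hey1 line. Its difference was positive in the Hey2 line and negative in the Hey1 line, and likewise for its second probe set, with 0.30 for the Hey2 line and -0.30 for the Hey1 line. Pfkfb4 read 7.22 labelled induced and 7.25 uninduced in the Hey2 line, against 7.51 and 7.50 in the Hey1 line, so the lines were apart and the states were not.

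Aldolases split the sugar and triose phosphate isomerase interconverts the products. Aldoa stayed between 13.71 and 13.78, and Tpi1 between 12.66 and 12.94. The brain-type Aldoc read 8.56 labelled induced and 8.78 uninduced in the Hey2 line, and 8.97 and 8.82 in the Hey1 line, with differences of opposite sign.

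**Figure D3:**
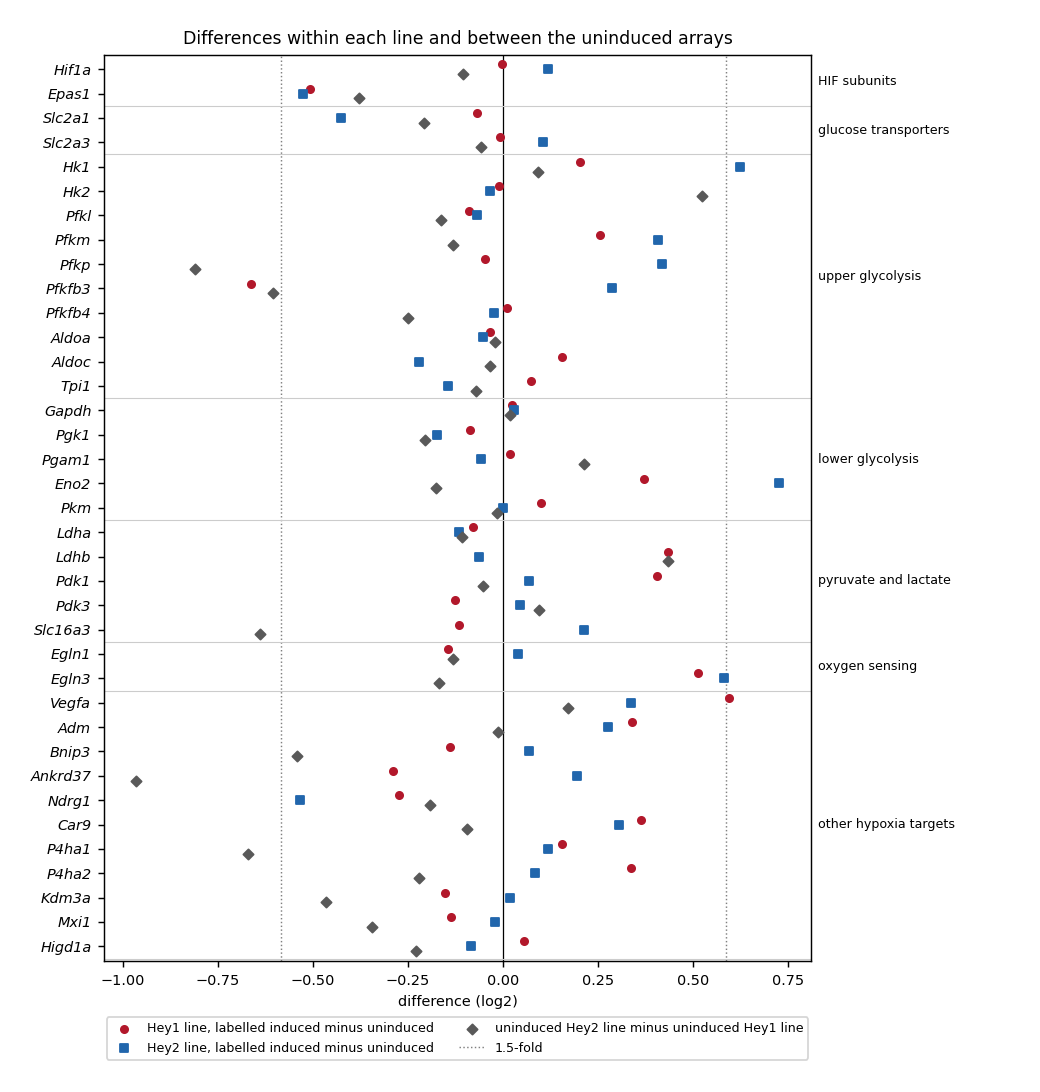
Differences in log2 for each of the 37 measured genes, grouped by role: arrays labelled induced minus uninduced in the Hey1 line (circles) and the Hey2 line (squares), and the uninduced Hey2 line minus the uninduced Hey1 line (diamonds). Dotted lines mark 1.5-fold. Diamonds of the lower block lie mostly left of 0, down to -0.97 for Ankrd37, while circles and squares fall on both sides.

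In lower glycolysis Gapdh varied little, whereas Pgk1 separated the lines. Gapdh, glyceraldehyde-3-phosphate dehydrogenase, read 14.63 labelled induced and 14.60 uninduced in the Hey2 line, and 14.60 and 14.58 in the Hey1 line, and its other probe sets likewise moved by at most 0.04 within a line. The phosphoglycerate kinase Pgk1, a HIF target, read 13.37 labelled induced and 13.54 uninduced in the Hey2 line, and 13.66 and 13.74 in the Hey1 line. Both arrays of the Hey2 line were below both of the Hey1 line, for all 3 probe sets, with a line effect of -0.25 ± 0.08 (SE; limma, adjusted p = 0.16). Pgam1, phosphoglycerate mutase, lay the other way, at 13.38 and 13.44 in the Hey2 line, labelled induced and uninduced, against 13.24 and 13.22 in the Hey1 line. The pyruvate kinase Pkm read between 12.42 and 12.54.

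Eno2, the neuronal enolase and a HIF target, was the one lower-glycolysis gene past 1.5-fold. Eno2 read 6.12 labelled induced and 5.40 uninduced in the Hey2 line, and 5.95 labelled induced and 5.58 uninduced in the Hey1 line. Both arrays labelled induced were above both uninduced arrays, but 3 of the 4 values lay under the level filter. Its common response was 0.55 ± 0.12 (SE, limma, adjusted p = 0.301). Eno2 passed the filter only through the array labelled induced of the Hey2 line, so this difference was set in part by the filter and supports nothing.

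At the pyruvate branch point, Ldha, the main lactate-forming dehydrogenase and a HIF target, stayed between 13.42 and 13.64. Ldhb, the isoform that favours pyruvate, read 11.51 labelled induced and 11.57 uninduced in the Hey2 line, and 11.57 labelled induced and 11.13 uninduced in the Hey1 line. A single array, the uninduced one of the Hey1 line, was low, in all 4 probe sets of Ldhb. The same array therefore gave both a difference of 0.43 in the Hey1 line and one of 0.43 between the uninduced arrays. The kinase Pdk1, which inhibits pyruvate dehydrogenase, read 11.67 labelled induced and 11.60 uninduced in the Hey2 line, and 12.05 and 11.65 in the Hey1 line. Its difference of 0.40 in the Hey1 line was not shared by its other 3 probe sets, which gave 0.01, 0.01 and 0.04. The related kinase Pdk3 read 9.98 and 9.93 in the Hey2 line, labelled induced and uninduced, against 9.71 and 9.84 in the Hey1 line. Slc16a3 (MCT4), the lactate exporter, read 5.75 labelled induced and 5.53 uninduced in the Hey2 line, below the filter, and 6.06 and 6.18 in the Hey1 line. Its uninduced value was 1.56-fold lower in the Hey2 line, with a line effect of -0.48 ± 0.12 (SE, limma, adjusted p = 0.103). Slc16a3 passed the filter only through the arrays of the Hey1 line, so this difference was set in part by the filter and supports nothing.

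Of the oxygen sensors, Egln1 (PHD2), the main HIF prolyl hydroxylase, read between 8.15 and 8.30, with the Hey2 line 0.13 below the Hey1 line between the uninduced arrays. Its other probe set, between 6.98 and 7.44, was higher in the Hey2 line, by 0.33 labelled induced and 0.40 uninduced, so the probe sets disagreed in sign. Egln3 (PHD3), itself a HIF target, read 7.81 labelled induced and 7.23 uninduced in the Hey2 line, and 7.91 labelled induced and 7.39 uninduced in the Hey1 line. Both arrays labelled induced were above both uninduced arrays, by similar amounts, 0.58 for the Hey2 line and 0.51 for the Hey1 line. The second Egln3 probe set, below the filter, gave 0.92 for the Hey2 line and 0.34 for the Hey1 line. Egln3 had the lowest p of the 35 genes for the common response, 0.55 ± 0.08 (SE; limma, adjusted p = 0.261), and did not pass.

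Among the other hypoxia targets, Vegfa, the vascular growth factor, read 8.10 labelled induced and 7.77 uninduced in the Hey2 line, and 8.19 labelled induced and 7.60 uninduced in the Hey1 line. Both arrays labelled induced were above both uninduced arrays, with a common response of 0.46 ± 0.10 (SE; limma, adjusted p = 0.301). The other Vegfa probe set gave smaller differences, 0.09 for the Hey2 line and 0.18 for the Hey1 line. Adm, the vasodilator adrenomedullin, read 6.19 and 5.91 in the Hey2 line, labelled induced and uninduced, and 6.26 and 5.92 in the Hey1 line. Its second probe set, far below the filter, gave 0.02 for the Hey2 line and -0.57 for the Hey1 line. Car9, a carbonic anhydrase used as a hypoxia marker, was below the filter on all arrays, at 5.71 labelled induced and 5.40 uninduced in the Hey2 line, and 5.86 and 5.50 in the Hey1 line. Ndrg1, a stress-responsive gene, went the other way, at 7.44 labelled induced and 7.97 uninduced in the Hey2 line, and 7.89 and 8.16 in the Hey1 line. Its common response was -0.40 ± 0.10 (SE; limma, adjusted p = 0.311). The differences of all 5 Ndrg1 probe sets were negative in the Hey1 line, and those of 4 in the Hey2 line. The dimmest, below the filter, gave 0.35 for the Hey2 line and -0.02 for the Hey1 line. By their brightest probe sets Vegfa and Ndrg1, which HIF is known to raise together in hypoxia, thus stood on opposite sides.

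Between the lines this group lay mostly to one side. All 10 of these targets that passed the filter were lower in the Hey2 line between the arrays labelled induced (median -0.35), against 52.7% of all genes. Between the uninduced arrays 9 of 10 were lower (median -0.29), against 46.2% of all genes. At an unadjusted p under 0.05, 8 of 10 were lower, against 13.1% of all genes, 0 were higher, against 15.2%, and limma called 0 after adjustment. Among the 14 glycolytic enzymes that passed, 8 were below 0 in both states, against 35.2% of all genes. Ankrd37, an ankyrin-repeat gene strongly induced by HIF, read 7.35 labelled induced and 7.15 uninduced in the Hey2 line, against 7.83 and 8.12 in the Hey1 line. Both arrays of the Hey2 line were below both of the Hey1 line, and the gap was 1.95-fold uninduced and 1.40-fold labelled induced. Its line effect was -0.72 ± 0.15 (SE; limma, adjusted p = 0.083).

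P4ha1, the catalytic subunit of collagen prolyl 4-hydroxylase, had a similar gap in both states. It read 7.33 labelled induced and 7.21 uninduced in the Hey2 line, against 8.04 and 7.88 in the Hey1 line. The lines did not overlap, and the gap was 0.71 labelled induced and 0.67 uninduced, with a line effect of -0.69 ± 0.08 (SE; limma, adjusted p = 0.0538), just outside the threshold. Its second probe set, below the filter, was lower in the Hey2 line by 0.27 labelled induced and 0.41 uninduced. The sister gene P4ha2 read 6.48 and 6.40 in the Hey2 line, labelled induced and uninduced, against 6.96 and 6.62 in the Hey1 line.

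Bnip3, which drives mitophagy, read 9.95 labelled induced and 9.88 uninduced in the Hey2 line, against 10.29 and 10.42 in the Hey1 line. Kdm3a, a histone H3 lysine demethylase, read 12.08 labelled induced and 12.07 uninduced in the Hey2 line, against 12.38 and 12.53 in the Hey1 line. For both genes the lines did not overlap, and the limma line effects were -0.44 ± 0.10 for Bnip3 (SE, adjusted p = 0.0897) and, for Kdm3a, -0.38 ± 0.09 (SE, adjusted p = 0.101). Mxi1, an antagonist of Myc, read 8.85 and 8.87 in the Hey2 line, labelled induced and uninduced, against 9.08 and 9.22 in the Hey1 line. Higd1a, a mitochondrial protein, read 11.87 labelled induced and 11.95 uninduced in the Hey2 line, against 12.23 and 12.18 in the Hey1 line. Of all 69 probe sets of the set that reached the filter, 40 were below 0 in both states, and of the 21 probe sets of these targets, dim ones included, 16 were. The share over all probe sets of the array was not counted. With a single probe set per gene it was 35.2% of all genes that passed the filter. Along with the lines, the summed linear level of the fibroblast markers was 324 labelled induced and 356 uninduced in the Hey2 line, against 494 and 412 in the Hey1 line. Of its 8 measured genes 2 passed the filter, Thy1 with a mean line difference of -1.85 and Col1a2 with -0.006, while the median of the 8 was 5.36 and 5.34 in the Hey2 line, against 5.26 and 5.25 in the Hey1 line. The sum for the neuroectoderm markers was 863 labelled induced and 1015 uninduced in the Hey2 line, against 1068 and 1188 in the Hey1 line. The sums for trophoblast (296 and 406 in the Hey2 line, against 323 and 305), endoderm (275 and 297, against 268 and 264) and mesoderm and heart (336 and 373, against 345 and 351) were highest in the Hey2 line uninduced. The part of these cells in the line effect was not tested.

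**Figure D4:**
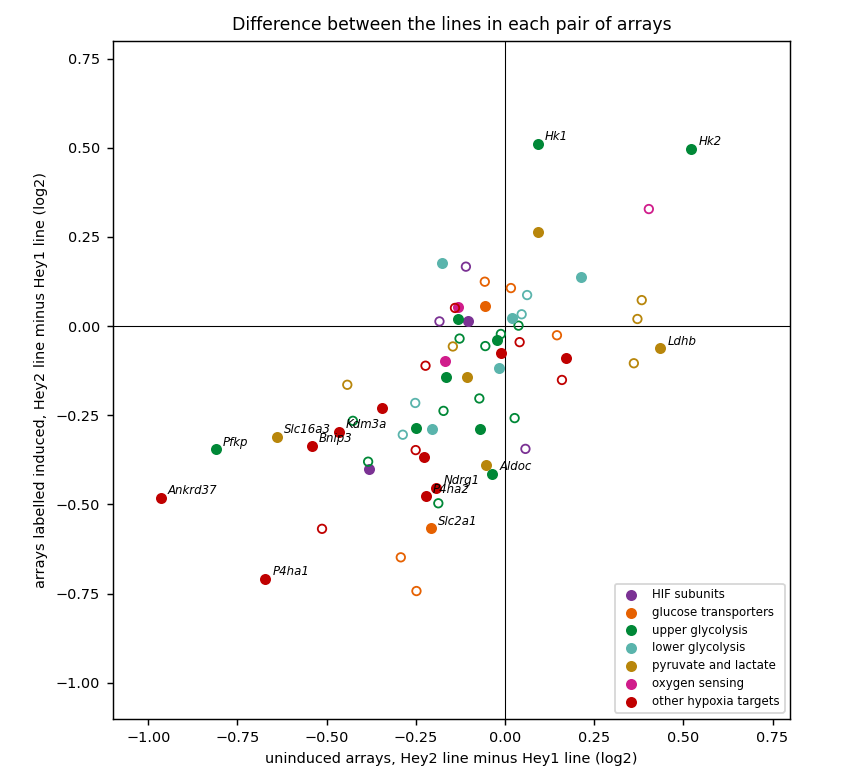
Hey2 line minus Hey1 line in log2, between the uninduced arrays (horizontal axis) and between the arrays labelled induced (vertical axis), for the 69 probe sets that reached the level filter. Filled points are the probe set that represents a gene and open points its other probe sets. P4ha1, Ankrd37, Pfkp and Slc16a3 lie at the lower left and Hk2 at the upper right.

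Counts in the related lists are read against the 15.2% of all genes higher and the 13.1% lower at the unadjusted level. Of 16 HIF partners and regulators, all of which passed the filter, 3 were higher and 0 lower in the Hey2 line at an unadjusted limma p under 0.05, a share of higher genes near that of all genes. The 3 were the coactivators Crebbp (0.76) and Ep300 (0.39) and the HIF-restraining Cited2 (0.41), given as mean line differences in log2. Within the lines, Rbx1, a subunit of the ligase that Vhl recruits, had the lowest mean difference (-0.31), followed by Egln2 (-0.26) and Os9 (-0.10), and Siah2 (0.24), Arnt2 (0.16) and Vhl (0.15) the highest. Of 23 further hypoxia genes that passed, 7 were lower and 2 higher in the Hey2 line, and the adenylate kinase Ak4 differed most, at -1.02 between the uninduced arrays and -0.29 between the arrays labelled induced. In the common response 6 of these 23 were higher and 1 lower at the unadjusted level, against 6.9% and 6.31% of all genes. Their highest mean differences were those of Ak4 (0.52), Hmox1 (0.46) and Anxa2 (0.43), and their lowest those of Stc1 (-0.48), Bhlhe40 (-0.30) and Edn1 (-0.21).

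In other branches of sugar metabolism the differences between the lines lay on both sides of 0. Of 6 pentose phosphate enzymes that passed, 3 were higher and 0 lower at the unadjusted level, namely Pgd (0.65), Pgls (0.43) and Tkt (0.26), with limma adjusted p of 0.0553 for Pgd. Of the other 3, Taldo1 and Rpe had mean line differences of 0.04 and 0.13, and Rpia had -0.10. Of 26 genes of pyruvate entry and the citric acid cycle, 4 were higher and 4 lower, shares near those of all genes, with Pdk4 at 0.75 and the phosphatase Pdp1 at -0.56. The mean differences within the lines in this list ran from -0.10 for Sdhd, with Cs and Sdha close to it, to 0.39 for Sucla2, with Pdk4 at 0.35 and Suclg2 at 0.23. Of 18 further glycolytic isoforms and sugar enzymes, 3 were higher and 1 lower in the Hey2 line, among them Eno3 at 0.46. Within the lines Hk3 (-0.28), Gapdhs (-0.27) and Eno3 (-0.22) had the lowest mean differences in that list, and Pck2 (0.44), Minpp1 (0.09) and Ldhd (0.09) the highest.

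In the list of glucose-response and Myc family genes, limma called 1 of 14 genes for the line effect. Mlxipl (ChREBP), which activates glycolytic genes when glucose is plentiful, was higher in the Hey2 line by 1.03 labelled induced and 1.14 uninduced (limma, adjusted p = 0.0439). That call is close to the threshold: Mlxipl had an adjusted p of 0.05 or more in 6 of 12 alternatives, among them each array left out, over a range of 0.000375 to 0.40. Mycn was higher by 0.42 without passing. Within the lines Mxd4 (-0.38), Mycn (-0.27) and Mxd1 (-0.21) had the lowest mean differences, and Mxd3 (0.37), Txnip (0.16) and Arrdc4 (0.14) the highest. Of 9 reference genes, 1 was higher (Gusb, 0.37) and 1 lower (Pgk1, -0.25) in the Hey2 line at the unadjusted level, while Actb and Tbp differed by 0.07 and 0.03. B2m differed by 0.12 between the arrays labelled induced and 0.66 between the uninduced arrays.

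**Figure D5:**
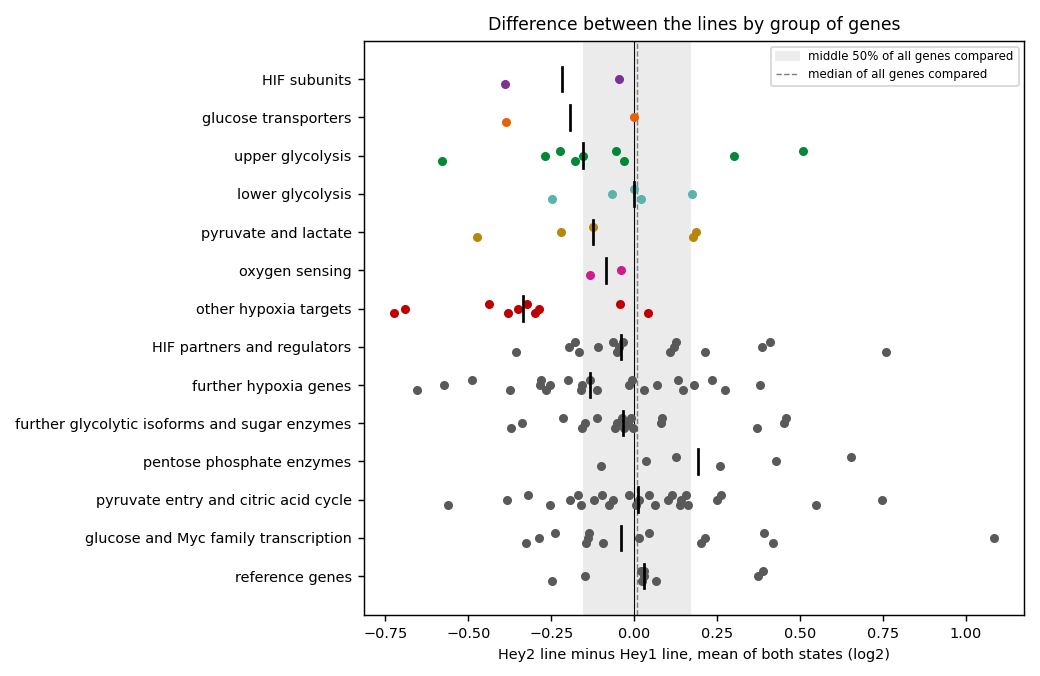
Hey2 line minus Hey1 line averaged over both states (log2) for each gene that passed the level filter, by role (coloured) and for the related lists (grey), with a black bar at the median of each. The shaded band holds the middle 50% of all genes compared. The bar of the other hypoxia targets lies at -0.34, and that of the pentose phosphate enzymes at 0.19. The bars of the remaining coloured roles lie left of or at 0, with -0.22 for the HIF subunits, -0.19 for the glucose transporters and -0.0001 for lower glycolysis.

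Of the 35 genes, 13 had a mean of at least 12. Their largest difference was 0.43 within a line, for Slc2a1, 0.57 between the arrays labelled induced, again for Slc2a1, and 0.52 between the uninduced arrays, for Hk2. By the probe set that stands for each gene, 12 genes kept all 4 arrays within 0.3, namely Hif1a, Slc2a3, Pfkl, Pfkfb4, Aldoa, Tpi1, Gapdh, Pgam1, Pkm, Ldha, Pdk3 and Egln1. Dimmer probe sets of Hif1a, Slc2a3, Tpi1 and Egln1 ranged wider, that of Tpi1 from 12.02 to 12.52. The share of all genes within that range was not counted. The gap between the uninduced arrays was wider than the difference in both lines for 14 of 35 genes, 40.0%, against 48.1% of all genes. The sign within the lines was shared by 19 of the 35, with 10 higher and 9 lower in both, and opposite in 16, or 45.7%, against 36.1% of all genes.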

How the data were processed

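RMA, named in the submitters' processing notes, gave the deposited log2 value of each probe set. No version of it, array definition or build is given in the sources used here. The sorted values of the 4 arrays differed by at most 0.0024, so these values cannot show a shift common to all genes. Precision is limited by the number of arrays. Of 45101 probe sets, 34958 had a single gene symbol in the platform annotation and were used.

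Arrays were grouped by title. Differences of log2 values were taken within each line and between the lines, with no test, since each group is 1 array. The common response and the line effect came from lmFit and eBayes of limma 3.58.1 under R 4.3.3. All 4 arrays were used, with doxycycline and line as terms and Benjamini-Hochberg adjustment over 12098 genes at 0.05. Only the common response was tried on simulated data, with noise drawn independently for each array, and the line effect was not. Python 3.11.15 with pandas 2.3.3 and numpy 2.4.6 did the rest, and matplotlib 3.10.9 the figures. Promoter windows of 300 bases were searched on both strands.

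The members and the related lists were chosen with earlier results of these data known. Values on all 4 arrays are given for members past 1.5-fold in a line, the 5 per direction with the largest mean difference or uninduced gap, Hif1a, Epas1, Gapdh and Pgk1. Other members' values, and list genes beyond the 3 per direction with the largest mean difference within the lines, were chosen after they were seen. The alternatives tried were other level filters, scalings, probe set rules, offsets, reference arrays, prior variances and models, and each array left out.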

Additional observations from a re-analysis of the deposited data

Results flagged for a closer look

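Pfkfb3, an activator of phosphofructokinase through fructose 2,6-bisphosphate, differed in opposite directions between the array labelled induced and the uninduced array of each line, by 0.28 for the Hey2 line and -0.66 for the Hey1 line. The difference between the lines' responses was not tested, since each group is 1 array, and all 4 values lay below the level filter.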

How the results depend on the processing

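The labels carry no replicate numbers, so arrays are paired only by line and by state, which the fit holds as terms. Without the other term (no replicate block) the line effect called 2 genes higher and 3 lower. Between the uninduced arrays the median of the members kept its sign, from -0.198 with the mean of probe sets to -0.0876 with a filter at the 75th percentile. Members at least 1.5-fold lower there numbered 1 with that filter, 2 with an offset of 32, 2 with the mean of probe sets and 1 between the arrays labelled induced, where Pfkfb3 was at 0.34. In the Hey2 line the members 1.5-fold higher numbered 1 with the 75th percentile filter, 1 with the offset, 3 with cyclic loess and 3 with the mean of probe sets. With the uninduced array of the other line as reference 1 was higher and 4 lower, with a median of -0.14. In the Hey1 line 0 were higher with that filter, with the offset and with the mean of probe sets, 4 with the other line's reference, with a median of 0.14, and without a level filter 1 was lower. For the common response, a prior variance with trend and robust fit called 241 genes higher and 192 lower, of them 1 member each way, Egln3 (limma adjusted p = 0.0476) and Epas1 (0.00603). The 75th percentile filter called 3 genes higher and 1 lower, and leaving out each array in turn, with line dropped from the model since no residual degree of freedom remains with it, 0 to 5 higher, with 5 without the array labelled induced of the Hey2 line, and 0 lower. For the line effect, leaving out each array, with the state dropped from the model, gave 0 to 32 genes higher and 0 to 39 lower. These fits take the lone array of a group to vary like the other group. The genes called higher and lower were 1543 and 1390 with the trend and robust prior (2 and 11 members), 1066 and 798 with the 75th percentile filter (1 and 6 members), 679 and 448 with the offset (1 and 2 members), 311 and 243 with the mean of probe sets (1 and 1 members), 214 and 119 with cyclic loess (0 and 1 members) and 0 and 0 with every probe set. With every probe set the line effects of Epas1 and Ndrg1, taken from other probe sets, were 0.0285 and 0.0043. Centring on the median changed no call, which was fixed in advance because the sorted values of the arrays were almost equal. The causes were not tested.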
